A study of Mus musculus with 21 samples.

Results

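The 7 genes Erg, Lef1, Sox4, Myb, Meis1, Lmo2 and Gata2 encode early progenitor transcription factors, Lmo2 being a cofactor that joins other factors into a complex. They were found on the arrays by the platform's gene symbols: 21 of the 45037 non-control probe sets carried exactly 1 of these symbols, and 0 listed a member among several symbols. Sox4 had 8 probe sets, Myb and Meis1 had 3 each, Erg, Lef1 and Gata2 had 2 each, and Lmo2 had 1. Genes of this kind help to maintain blood stem cells and progenitors. Erg, Meis1, Lmo2 and Gata2 are best known from stem and multipotent progenitor cells, while Lef1, Sox4 and Myb also act in pro-B cells, the earliest committed B-cell precursors. In the B lineage the adaptor protein BLNK carries the signal of the pre-B cell receptor, which moves these precursors on from division to maturation.

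The series held 21 arrays in 7 groups of 3. Cells positive for B220, a surface protein of the B lineage, were separated by cell sorter from bone marrow of wild-type mice, of mice with a Cebpb LAP transgene (LAP is the activating form of the transcription factor C/EBPβ), of Blnk knockout mice, and of mice with both changes. The remaining groups were LB31, a preB-ALL (precursor B acute lymphoblastic leukaemia) line from a Blnk knockout mouse, carrying the pMY retroviral vector empty, with Blnk cDNA, or with a mutant Blnk cDNA that has lost its function, called YF. All 3 LB31 groups thus share the line's Blnk knockout origin, its vector and 5 ng/ml of interleukin 7 in the medium, and they are derivatives of 1 line. The transgene's promoter, the animals' age and strain, any pooling of animals, and whether replicates came from separate mice or cultures are not stated in the labels. Each p-value is therefore about the spread of these 21 samples alone, and that spread may be technical.

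Values below are normalized log2 signals on a scale shared by all 21 arrays: a difference of 1 is a doubling of the normalized value. Before log2 and normalization, 4 was added to the deposited intensity. Probe sets bind with different strength, so a level is compared between groups for the same probe set and never between probe sets. A level of 4.06 marks the 40th percentile of an array, and a probe set was tested in a fit if 3 or more of the fit's arrays had it above their respective 40th percentiles. In the marrow fit 19 of the 21 probe sets passed and in the LB31 fit 17. Sox4 1443778_at and Sox4 1458332_x_at passed in neither, and Meis1 1450992_a_at and Gata2 1428816_a_at passed in marrow but not in LB31. A probe set was called at an adjusted p under 0.05 from limma, adjusted over every probe set of the fit.

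Replicate arrays of a group correlated at r from 0.963 to 0.98. The only Blnk probe set did not follow the labels, with group means from 12.03 to 12.44 in marrow and 8.56 in LB31 labelled BLNK-labelled against 9.63 with the empty vector. The latter difference, -1.07 ± 0.05 (limma adjusted p = 8.59e-08), runs against the label. Whether this probe set lies in the deleted part of the gene or in the cDNA was not determined here, so it does not check the labels. Every direction below is that of the labels, and the groups are called knockout-labelled, LAP knockout-labelled, BLNK-labelled and YF-labelled. Cebpb 1427844_a_at did follow the transgene, at 10.05 and 9.90 in the LAP groups against 5.43 and 5.02 in the other marrow groups. It stood at 10.22, 10.11 and 10.09 in the LB31 groups as well, whose labels name no transgene. The other Cebpb probe set, 1418901_at, was not called for the transgene. Its change was 1.02 ± 0.41 for LAP transgenic against wild-type marrow (limma adjusted p = 0.201). For LAP knockout-labelled against knockout-labelled marrow it was 0.15 ± 0.41 (adjusted p = 0.904). All 6 B-lineage markers lay above the filter level in every group, but marrow also carried neutrophil transcripts, with a mean log2 signal of 8 markers between 9.40 and 11.84 per array, against 2.84 to 3.95 in LB31. The highest of these was LAP transgenic replicate 3, which stood apart from its group. In LB31 the array that mattered most was empty vector replicate 1: without it the probe sets called for YF-labelled against empty vector went from 67 to 2069. The 3′ to 5′ signal ratio of GAPDH, a measure of RNA integrity, ran from 0.764 to 0.805 in wild-type and from 0.822 to 0.85 in knockout-labelled marrow, and that of actin overlapped.

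Of the 19 tested member probe sets, 6 were called between knockout-labelled and wild-type marrow, 5 higher and 1 lower, where 12.7% of all tested probe sets were called (6.24% higher, 6.45% lower). LAP knockout-labelled marrow against wild-type also gave 5 higher and 1 lower, at a background of 25.2% (12.6% in each direction), and against LAP transgenic marrow 7 higher and 0 lower, at 21.2% (11.3% higher, 9.86% lower). None was called for LAP transgenic against wild-type marrow (background 2.6%), for LAP knockout-labelled against knockout-labelled marrow (5.2%) or for the interaction of the 2 changes (1.18%). These marrow comparisons share arrays, so their values are set side by side and are not independent of each other. In LB31, BLNK-labelled against empty vector gave 2 higher and 6 lower of 17, at a background of 11.4% (5.57% higher, 5.82% lower), and BLNK-labelled against YF gave 0 higher and 6 lower, at 6.34% (2.5% higher, 3.84% lower). YF-labelled against empty vector gave none, at a background of 0.227%. The marrow counts of 5 and 7 higher each include Erg 1425370_a_at, which was below the filter level in the groups without the knockout label; without it they are 4 and 6 of 18. The median change of the tested members was 0.15 for knockout-labelled against wild-type marrow and -0.18 for BLNK-labelled against empty vector, and that of all probe sets was 0.00 in each. The grid of changes shows where the calls lie: on Erg and Lef1 in every comparison that had any, and within marrow or within LB31 also on Sox4, Lmo2, Gata2 or Myb but not Meis1.

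**Figure D1:**
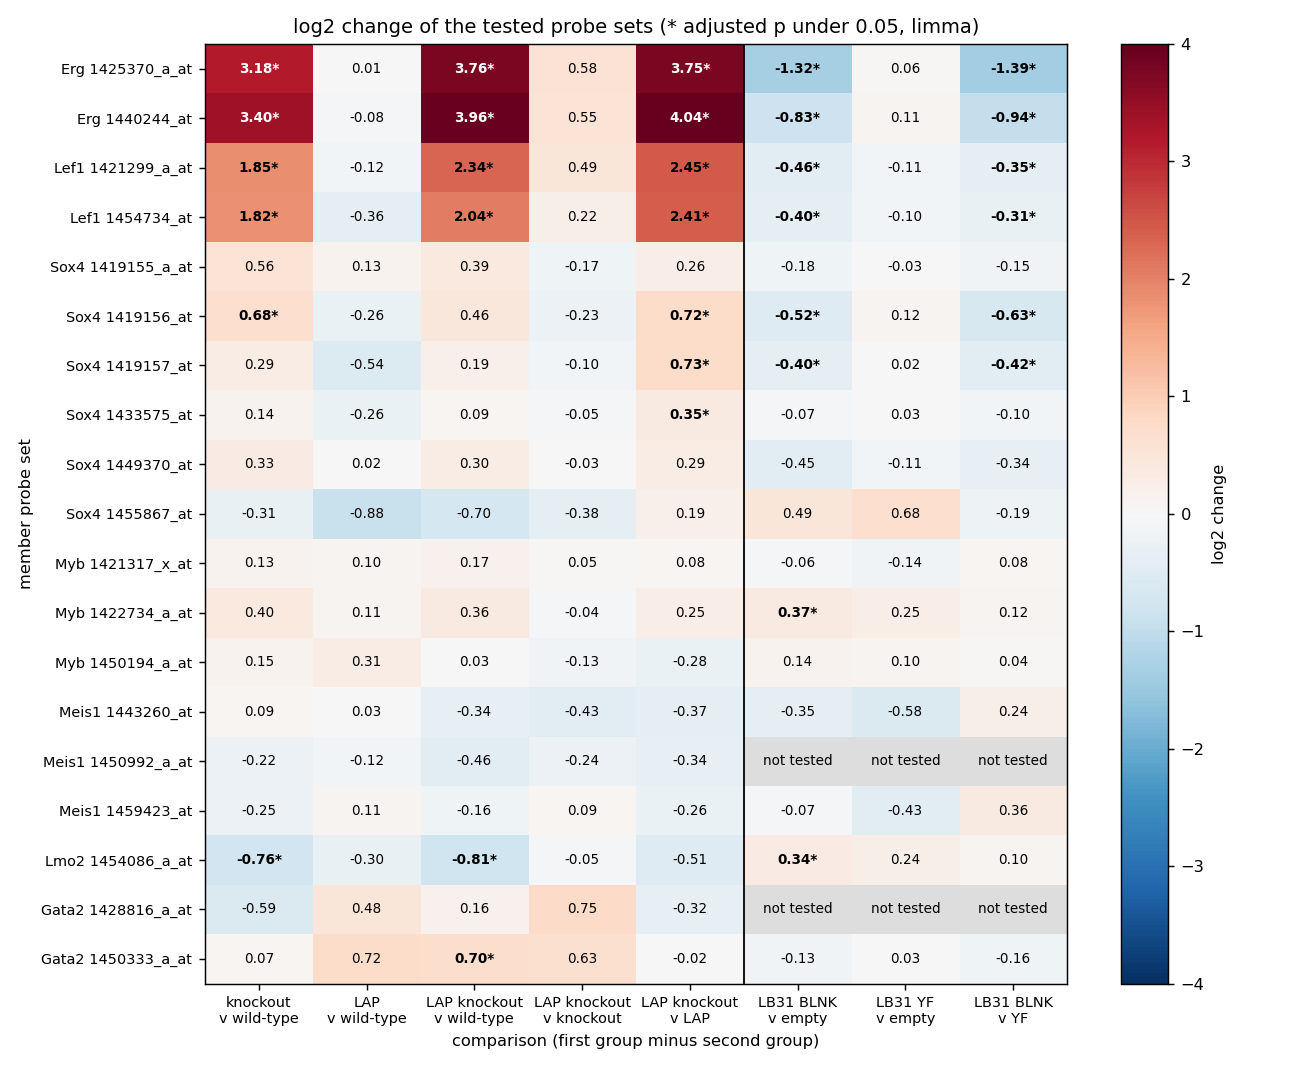
Log2 change of the 19 tested member probe sets (rows) in 8 comparisons (columns, group named above minus group named below), with groups as labelled; red is higher, blue is lower, grey was not tested, and an asterisk marks an adjusted p under 0.05 by limma. Both Erg and both Lef1 probe sets are red in the knockout-labelled columns (3.40 for Erg 1440244_at, 1.82 and 1.85 for Lef1 against wild-type) and blue in the BLNK-labelled columns.

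Erg is an ETS-family factor needed to keep blood stem cells, and Lef1 is the nuclear partner of β-catenin in Wnt signalling. Among the 7 members these 2 had the largest called changes between knockout-labelled and wild-type marrow. Because they moved together there, 250 bases before 2 of their RefSeq start sites are shown for each, the most upstream and the most downstream listed (build GRCm38.p6). The Erg windows are chr16:95586594-95586843 and chr16:95459349-95459598 on the minus strand, and the Lef1 windows are chr3:131110047-131110296 and chr3:131156044-131156293 on the plus strand. Capitals mark the ETS core GGAA on either strand, which reads TTCC when it lies on the other strand.
Erg upstream start: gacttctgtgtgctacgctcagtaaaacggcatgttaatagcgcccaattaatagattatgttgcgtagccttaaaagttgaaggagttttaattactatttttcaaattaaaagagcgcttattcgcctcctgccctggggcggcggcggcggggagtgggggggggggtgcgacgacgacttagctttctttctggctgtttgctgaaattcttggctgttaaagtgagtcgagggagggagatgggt
Erg downstream start: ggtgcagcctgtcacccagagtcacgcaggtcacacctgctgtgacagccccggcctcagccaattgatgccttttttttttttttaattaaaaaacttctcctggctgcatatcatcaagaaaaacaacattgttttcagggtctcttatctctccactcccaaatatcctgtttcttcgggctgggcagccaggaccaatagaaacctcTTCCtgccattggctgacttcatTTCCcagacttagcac
Lef1 upstream start: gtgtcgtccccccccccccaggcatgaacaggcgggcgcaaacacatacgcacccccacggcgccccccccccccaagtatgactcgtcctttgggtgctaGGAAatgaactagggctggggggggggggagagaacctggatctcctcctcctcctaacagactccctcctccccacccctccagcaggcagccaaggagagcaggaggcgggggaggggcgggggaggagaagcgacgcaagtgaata
Lef1 downstream start: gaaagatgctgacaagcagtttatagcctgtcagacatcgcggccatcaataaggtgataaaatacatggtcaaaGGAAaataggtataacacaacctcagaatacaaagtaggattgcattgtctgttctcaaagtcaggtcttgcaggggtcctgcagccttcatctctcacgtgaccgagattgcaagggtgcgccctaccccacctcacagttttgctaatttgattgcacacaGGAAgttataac
The core was found 0 and 2 times in the printed Erg windows and 1 and 2 times in the printed Lef1 windows. The windows in between, 1 for Erg and 2 for Lef1, held it 4 times, and 1 and 4 times. The first 2 Lef1 windows overlap, the second being chr3:131110073-131110322, so the same match can be counted in both. GGAA is a common string, present in 93.4% of the 32851 windows of this length in the table. The TCF/LEF core CTTTG, on either strand, was found 1, 2, 1 and 3 times in the 4 Lef1 windows from upstream to downstream and 0 times in all 3 Erg windows, and 48.6% of all windows hold it. The C/EBP core TTNNGNAA, which can overlap GGAA, was found 1, 3 and 0 times in the Erg windows and 0, 0, 1 and 0 times in the Lef1 windows in the same order, and 36.8% of all windows hold it. These are matches of letters, and the tables used here do not say which start site a probe set reads. Start sites were matched for 6 of the 7 members, 12 in all; Lmo2 was not among them.

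Erg 1440244_at, on chromosome 16 like the windows above, read 7.32, 6.90 and 7.32 in wild-type marrow and 7.36, 7.05 and 6.88 in LAP transgenic marrow. It read 10.74, 10.66 and 10.33 in knockout-labelled and 11.23, 10.89 and 11.28 in LAP knockout-labelled marrow. Every array labelled as Blnk knockout lay above every array that was not, by more than 2 log2 units. The change from wild-type was 3.40 ± 0.16 (SE, n = 3 per group) in knockout-labelled marrow, a 10.6-fold higher value (limma adjusted p = 4.84e-08), and 3.96 ± 0.16, 15.5-fold, with LAP as well (adjusted p = 1.26e-09). Fewer cells of a type and less RNA per cell cannot be told apart in such bulk samples.

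The second Erg probe set, 1425370_a_at, read 2.90, 2.30 and 2.41 in wild-type and 2.79, 2.45 and 2.39 in LAP transgenic marrow, all below the filter level. In knockout-labelled marrow it read 5.66, 5.98 and 5.49, and in LAP knockout-labelled marrow 6.25, 6.0 and 6.64. It thus passed the filter in marrow only through the groups where it was high, and had to differ, so only a bound is given. With the low group set to the filter level, it was at least 3.14-fold higher in knockout-labelled and at least 4.7-fold higher in LAP knockout-labelled than in wild-type marrow. LAP alone gave -0.08 on Erg 1440244_at (95% interval -0.43 to 0.27), not called.

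Whether LAP added to Erg in the knockout-labelled background was not settled by the test. All 3 LAP knockout-labelled arrays lay above all 3 knockout-labelled arrays on both Erg probe sets, by 0.55 ± 0.16 (adjusted p = 0.0706) and 0.58 ± 0.27 (adjusted p = 0.298). The interaction was 0.64 ± 0.23 on 1440244_at (adjusted p = 0.245). With medians in place of quantiles to centre the arrays, the difference on 1440244_at was 0.54 with an adjusted p of 0.0471.

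In LB31 both Erg probe sets were lower on the BLNK-labelled arrays. Erg 1440244_at read 9.62, 9.41 and 9.52 with the empty vector, 8.80, 8.66 and 8.61 with the BLNK label and 9.57, 9.73 and 9.58 with the YF label. The BLNK-labelled arrays lay below all 6 others, which overlapped each other. BLNK-labelled against empty vector was -0.83 ± 0.07, 1.77-fold lower (limma adjusted p = 5.44e-06), and BLNK-labelled against YF was -0.94 ± 0.07 (adjusted p = 3.35e-06). Erg 1425370_a_at read 8.35, 8.32 and 8.34 with the empty vector, 6.95, 7.22 and 6.87 with the BLNK label and 8.48, 8.44 and 8.28 with the YF label. Its difference was larger, -1.32 ± 0.09 against empty vector (2.5-fold, adjusted p = 8.96e-07) and -1.39 ± 0.09 against YF. These Erg calls held under every alternative run. YF-labelled against empty vector was 0.11 (95% interval -0.04 to 0.26) and 0.06 (-0.13 to 0.26), and neither was called.

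**Figure D2:**
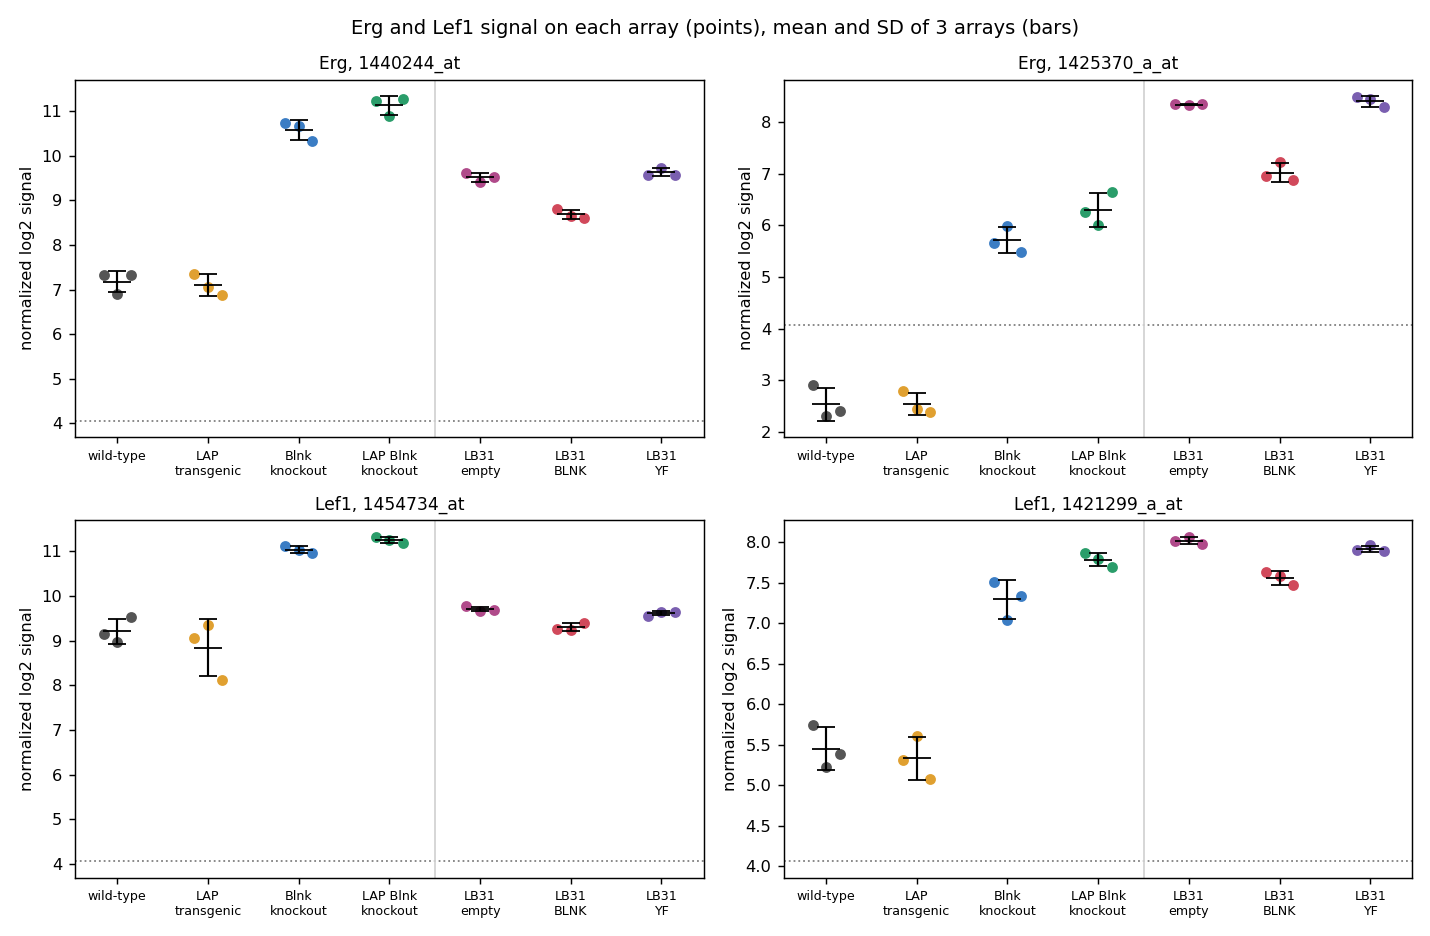
Normalized log2 signal of the 2 Erg and 2 Lef1 probe sets on each of 21 arrays (points, groups as labelled), with the mean and SD of 3 arrays as bars; the dotted line is the filter level of 4.06 and the grey line separates marrow from LB31. On both probe sets of each gene the knockout-labelled marrow arrays lie above the wild-type and LAP transgenic arrays, and in LB31 the BLNK-labelled arrays lie below the others.

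Lef1 followed the same order with smaller steps. Lef1 1454734_at, on chromosome 3, read 9.14, 8.98 and 9.52 in wild-type, 9.06, 9.35 and 8.13 in LAP transgenic, 11.12, 11.02 and 10.96 in knockout-labelled and 11.33, 11.25 and 11.18 in LAP knockout-labelled marrow. The low LAP transgenic value belongs to replicate 3, the array with the highest neutrophil signal. Knockout-labelled against wild-type was 1.82 ± 0.23, 3.54-fold higher (limma adjusted p = 0.000135), and LAP knockout-labelled against wild-type 2.04 ± 0.23, 4.12-fold. Against LAP transgenic marrow the LAP knockout-labelled change was 2.41 ± 0.23, and 2.05 without LAP transgenic replicate 3. On Lef1 1421299_a_at the arrays read 5.74, 5.23 and 5.39 in wild-type, 5.31, 5.61 and 5.08 in LAP transgenic, 7.51, 7.04 and 7.34 in knockout-labelled and 7.87, 7.79 and 7.70 in LAP knockout-labelled marrow. The groups did not overlap across the Blnk label, and the change from wild-type was 1.85 ± 0.18 and, with LAP, 2.34 ± 0.18. LAP alone gave -0.36 and -0.12, neither called.

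With the BLNK label in LB31, Lef1 1454734_at read 9.26, 9.25 and 9.40, against 9.77, 9.67 and 9.69 with the empty vector and 9.56, 9.64 and 9.64 with the YF label. Lef1 1421299_a_at read 7.63, 7.58 and 7.47 with the BLNK label, 8.01, 8.07 and 7.98 with the empty vector and 7.90, 7.96 and 7.89 with the YF label. On both, the BLNK-labelled arrays were the lowest and did not overlap with either other group. The changes against empty vector were -0.40 ± 0.05 (1.32-fold, adjusted p = 0.000341) and -0.46 ± 0.07 (1.38-fold, adjusted p = 0.000815), and against YF -0.31 ± 0.05 and -0.35 ± 0.07. The calls against empty vector were lost with values as deposited, at -0.26 and -0.36 (adjusted p = 0.585 and 0.428), and with median centring, at -0.24 and -0.35 (0.225 and 0.0869). Those against YF were lost with values as deposited, at -0.55 and -0.63 (adjusted p = 0.112 and 0.0744), and that on 1454734_at also with median centring (0.0533) and with no trend (0.0659). On the representative probe sets, those with the highest mean, Erg and Lef1 correlated at r = 0.89 over the 21 arrays, which share libraries and groups.

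Sox4, an HMG-box factor that pro-B cells need to survive, was the member with the most probe sets and the least even picture. The brightest, Sox4 1433575_at, read 12.69 to 12.86 in wild-type and 12.70 to 13.07 in knockout-labelled marrow, and these overlapped. Its change was 0.14 (95% interval -0.09 to 0.37, adjusted p = 0.453). Sox4 1419156_at read 8.91, 9.22 and 9.08 in wild-type and 9.99, 9.94 and 9.32 in knockout-labelled marrow, with no overlap, and rose by 0.68 ± 0.17 (1.6-fold, adjusted p = 0.015). Of the other 4 tested, 1419155_a_at (0.56, adjusted p = 0.0627), 1419157_at (0.29), 1449370_at (0.33) and 1455867_at (-0.31) were not called. The call on 1419156_at was lost without knockout-labelled replicate 1, knockout-labelled replicate 2 or wild-type replicate 1, at adjusted p from 0.0652 to 0.0756.

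LAP knockout-labelled against LAP transgenic marrow gave calls on 3 Sox4 probe sets, 0.72 ± 0.17 on 1419156_at, 0.73 ± 0.22 on 1419157_at and 0.35 ± 0.11 on 1433575_at. The call on 1419156_at held in every alternative. Those on 1419157_at and 1433575_at were both lost without LAP transgenic replicate 3, LAP knockout-labelled replicate 2 or LAP knockout-labelled replicate 3, and with no trend. That on 1419157_at was also lost without LAP transgenic replicate 2, and that on 1433575_at without LAP transgenic replicate 1, with no filter and with median centring (0.13, adjusted p = 0.517). In LB31, Sox4 1419156_at read 9.09, 9.03 and 9.31 with the empty vector, 8.85, 8.72 and 8.32 with the BLNK label and 9.28, 9.15 and 9.34 with the YF label. Sox4 1419157_at read 9.25, 9.33 and 9.31, then 8.80, 8.93 and 8.97, then 9.35, 9.30 and 9.30 in the same order of groups. BLNK-labelled arrays were the lowest on both, by -0.52 ± 0.11 (adjusted p = 0.011) and -0.40 ± 0.05 (adjusted p = 0.000407) against empty vector and by -0.63 ± 0.11 and -0.42 ± 0.05 against YF. The calls against empty vector were lost with values as deposited, where the changes were -0.39 and -0.24, and with median centring (-0.37 and -0.23). On 1419156_at the call against empty vector was also lost without empty vector replicate 3 (adjusted p = 0.0526), and with no trend both calls on this probe set were lost. On 1433575_at the change with the BLNK label was -0.07 (95% interval -0.18 to 0.03), not called.

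Myb, which drives the division of blood progenitors and pro-B cells, had no call within marrow. Its brightest probe set, 1421317_x_at, ran from 12.53 to 12.86 over all 12 marrow arrays, and knockout-labelled against wild-type was 0.13 (95% interval -0.01 to 0.27). Myb 1422734_a_at gave 0.40 (adjusted p = 0.113) and Myb 1450194_a_at 0.15, and the groups overlapped on each. In LB31, Myb 1422734_a_at read 10.64, 10.26 and 10.28 with the empty vector, 10.78, 10.65 and 10.85 with the BLNK label and 10.67, 10.70 and 10.55 with the YF label. It was higher by 0.37 ± 0.09 with the BLNK label (1.29-fold, adjusted p = 0.016), and empty vector replicate 1 lay with the other groups. This call was lost with no trend (adjusted p = 0.123) and without BLNK-labelled replicate 1, BLNK-labelled replicate 3, empty vector replicate 2 or empty vector replicate 3, at adjusted p from 0.0598 to 0.073. Without that array YF was higher as well, by 0.37 (adjusted p = 0.00299). The other 2 Myb probe sets were not called with the BLNK label, at -0.06 and 0.14.

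Lmo2, a LIM-only protein that bridges Tal1, Gata factors and Ldb1 on DNA, went the other way from Erg and Lef1. It read 10.41, 10.62 and 10.36 in wild-type, 10.08, 9.61 and 10.80 in LAP transgenic, 9.53, 9.66 and 9.91 in knockout-labelled and 9.94, 9.56 and 9.46 in LAP knockout-labelled marrow. All knockout-labelled arrays lay below all wild-type arrays, while the LAP transgenic arrays spanned the range. Against the same wild-type arrays, Lmo2 fell by 0.76 ± 0.23 in knockout-labelled (adjusted p = 0.0401) and by 0.81 ± 0.23 in LAP knockout-labelled marrow (adjusted p = 0.0171). Against LAP transgenic marrow the LAP knockout-labelled change was -0.51, not called. It was called only without LAP transgenic replicate 2 (-0.78, limma adjusted p = 0.0123). The call in knockout-labelled marrow was lost in 8 of the alternatives, among them values as deposited (-0.48, adjusted p = 0.0943) and 5 of the 6 that left out an array. That in LAP knockout-labelled marrow was lost with values as deposited (-0.49, adjusted p = 0.0693) and without LAP knockout-labelled replicate 2, LAP knockout-labelled replicate 3 or wild-type replicate 2, at adjusted p from 0.0595 to 0.0684. In LB31 Lmo2 read 8.82, 8.61 and 8.60 with the empty vector, 9.11, 8.89 and 9.07 with the BLNK label and 8.94, 8.93 and 8.88 with the YF label. With the BLNK label it was higher by 0.34 ± 0.07 (adjusted p = 0.00781), the groups not overlapping, and this call was lost with values as deposited (adjusted p = 0.159) and with no trend (0.0697). YF gave 0.24 ± 0.07 (adjusted p = 0.161), and 0.31 (adjusted p = 0.0136) without empty vector replicate 1.

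Gata2, a zinc-finger factor of stem cells, mast cells and megakaryocyte precursors, had its only call within marrow in LAP knockout-labelled against wild-type. Gata2 1450333_a_at read 5.61, 5.90 and 6.01 in wild-type, 6.34, 6.47 and 6.89 in LAP transgenic, 5.76, 5.65 and 6.32 in knockout-labelled and 6.63, 6.70 and 6.30 in LAP knockout-labelled marrow. Neither LAP group overlapped with wild-type, but only LAP knockout-labelled marrow passed the test, at 0.70 ± 0.21 (1.63-fold, adjusted p = 0.0231), against 0.72 ± 0.21 (adjusted p = 0.0855) for LAP alone. That call was lost when LAP knockout-labelled replicate 1, LAP knockout-labelled replicate 2 or wild-type replicate 1 was left out. The other Gata2 probe set, 1428816_a_at, changed by 0.16 in the same comparison and was not called. Its arrays overlapped there, at 4.15 to 4.80 in wild-type and 4.44 to 4.77 in LAP knockout-labelled marrow. All 7 megakaryocyte markers rose in the same LAP knockout-labelled comparison, with a mean log2 signal per array of 9.07 to 9.67 against 7.68 to 7.70 in wild-type, and 0 of the 4 tested basophil and mast cell markers were called. Their part in the Gata2 difference was not tested. Knockout-labelled against wild-type gave 0.07 on this probe set and -0.59 on the dimmer 1428816_a_at, neither called.

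Meis1, a homeobox partner of Hox and Pbx proteins, lay near or below the filter level on many arrays. Meis1 1450992_a_at read 4.81, 5.06 and 4.90 in wild-type marrow and 4.03, 4.93 and 5.13 in knockout-labelled marrow, overlapping, and 2.08 to 2.76 on the 9 LB31 arrays. No Meis1 probe set was called in any comparison within marrow or within LB31. Changes between knockout-labelled and wild-type marrow were 0.09, -0.22 and -0.25, with 95% intervals that reached from -1.01 to 0.59.

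**Figure D3:**
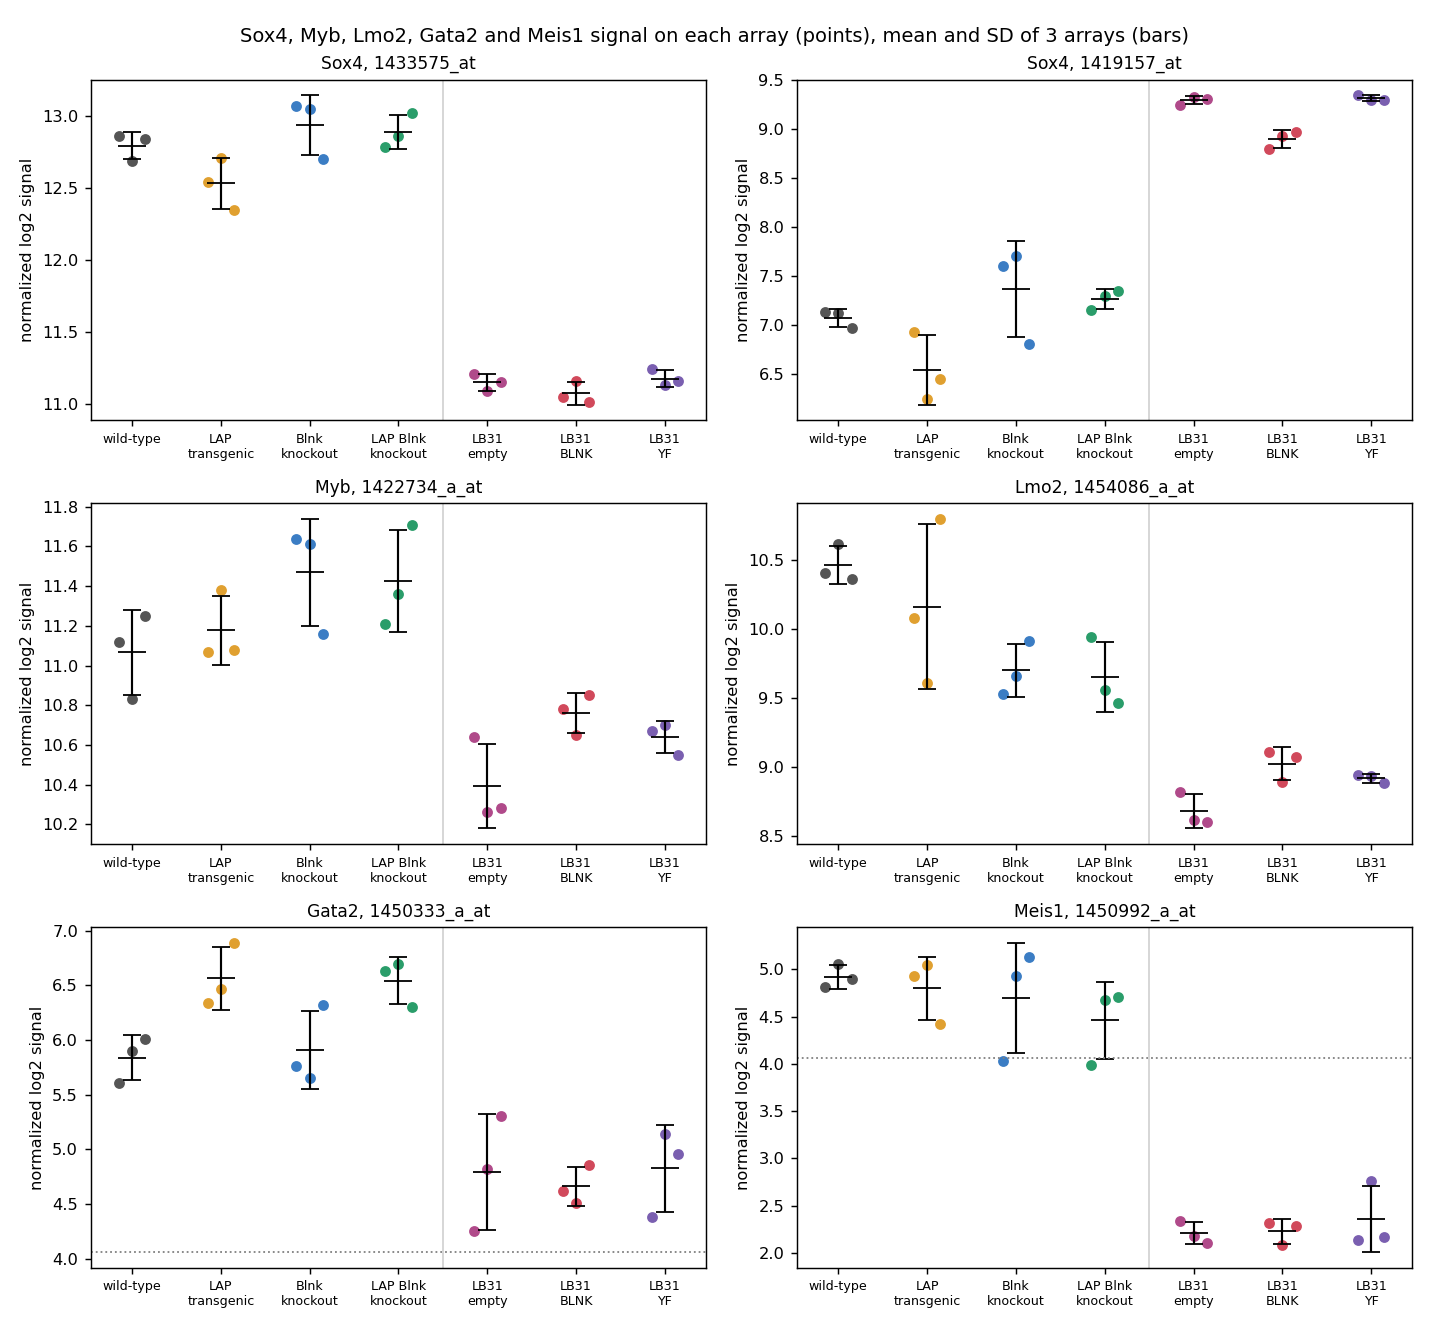
Normalized log2 signal of 6 probe sets of Sox4, Myb, Lmo2, Gata2 and Meis1 on each of 21 arrays (points, groups as labelled), with the mean and SD of 3 arrays as bars; vertical axes differ and do not start at 0, the grey line separates marrow from LB31, and the dotted line on the lowest row is the filter level of 4.06. The marrow groups lie within about 1 log2 unit of each other on each panel, and LB31 group means lie below marrow group means on all panels except Sox4 1419157_at. On Myb 1422734_a_at single arrays overlap, the highest BLNK-labelled array (10.85) lying above the lowest wild-type array (10.83).

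LB31 with the empty vector was set against both marrow groups that share its labelled Blnk genotype, knockout-labelled and LAP knockout-labelled. On Cebpb 1427844_a_at, LB31 with the empty vector (10.22) was near LAP knockout-labelled marrow (9.90) and far above knockout-labelled marrow (5.02). The small difference from LAP knockout-labelled marrow, 0.31 ± 0.13, was still called (limma adjusted p = 0.0411). LAP and the line thus cannot be told apart in the first comparison. On Cebpb 1418901_at LB31 was like neither group. Its change was -2.43 ± 0.39 against knockout-labelled and -2.58 ± 0.39 against LAP knockout-labelled marrow (limma adjusted p = 1.61e-05 and 7.92e-06). A leukaemia line in culture and sorted marrow differ in much else. In the first, 56.9% of all probe sets were called (29.3% higher, 27.6% lower), and 15 of the 19 tested member probe sets (4 higher, 11 lower). In the second, 14 were called (3 higher, 11 lower), at a background of 55.8% (28.7% higher, 27.1% lower). Probe sets of the same gene are not independent counts, and 2 of the 11 lower in each, Meis1 1450992_a_at and Gata2 1428816_a_at, were below the filter level on all LB31 arrays. The GAPDH 3′ to 5′ ratio ran from 0.701 to 0.725 in LB31 with the empty vector, below the 0.822 to 0.85 of knockout-labelled and the 0.803 to 0.923 of LAP knockout-labelled marrow, and that of actin from 1.19 to 1.28 against 1.35 to 1.49 and 1.35 to 1.46. The part of RNA integrity in these differences was not tested.

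Probe sets of Erg and of Sox4 were called in opposite directions in both comparisons. Erg 1425370_a_at was 2.63 ± 0.20 higher than in knockout-labelled and 2.04 ± 0.20 higher than in LAP knockout-labelled marrow, while Erg 1440244_at was -1.06 ± 0.13 and -1.62 ± 0.13. Sox4 1419157_at was 1.93 ± 0.17 and 2.03 ± 0.17, while Sox4 1433575_at was -1.79 ± 0.09 and -1.74 ± 0.09. Lef1 1454734_at was lower, at -1.33 ± 0.19 and -1.54 ± 0.19. Lef1 1421299_a_at was 0.72 ± 0.14 against knockout-labelled marrow, a call lost with values as deposited (0.18, adjusted p = 0.434), and 0.23 ± 0.14 against LAP knockout-labelled marrow, not called. Meis1 1459423_at was 0.93 ± 0.32 and 0.83 ± 0.32. Its call against knockout-labelled marrow was lost with values as deposited (0.35, adjusted p = 0.422), without knockout-labelled replicate 1 (0.53, adjusted p = 0.164), without empty vector replicate 3 and with the 6 arrays compared alone. Against LAP knockout-labelled marrow the call was lost with values as deposited (0.23, adjusted p = 0.609) and with no filter. It was also lost without empty vector replicate 1, empty vector replicate 3 or LAP knockout-labelled replicate 3. Meis1 1450992_a_at has only a bound, at least 1.56-fold higher in knockout-labelled marrow than in LB31. No direction between LB31 and marrow is given for these 4 genes.

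The other 3 genes had all called probe sets lower in LB31. Myb stood at -0.88 ± 0.06, -1.07 ± 0.14 and -0.54 ± 0.13 against knockout-labelled marrow, the last of which was 0.01 (adjusted p = 0.954) with median centring. Lmo2, on its only probe set, stood at -1.02 ± 0.19, 2.03-fold lower, and at -0.98 ± 0.19 against LAP knockout-labelled marrow. Gata2 1450333_a_at stood at -1.12 ± 0.26 and -1.75 ± 0.26, and the dimmer Gata2 probe set gives no size, its mean in knockout-labelled marrow (3.89) lying under the filter level too. The early progenitor markers Kit, Flt3 and Cd34 were called lower than in knockout-labelled marrow. They lay below the filter level on every empty-vector array, as did the recombinase genes Rag1 and Rag2, so no sizes are given. Rag1 and Rag2 belong to the 8 pro-B and large pre-B markers. Of these, 2 were called higher and 4 lower in LB31 than in knockout-labelled marrow, beside 29.3% and 27.6% of all probe sets.

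**Figure D4:**
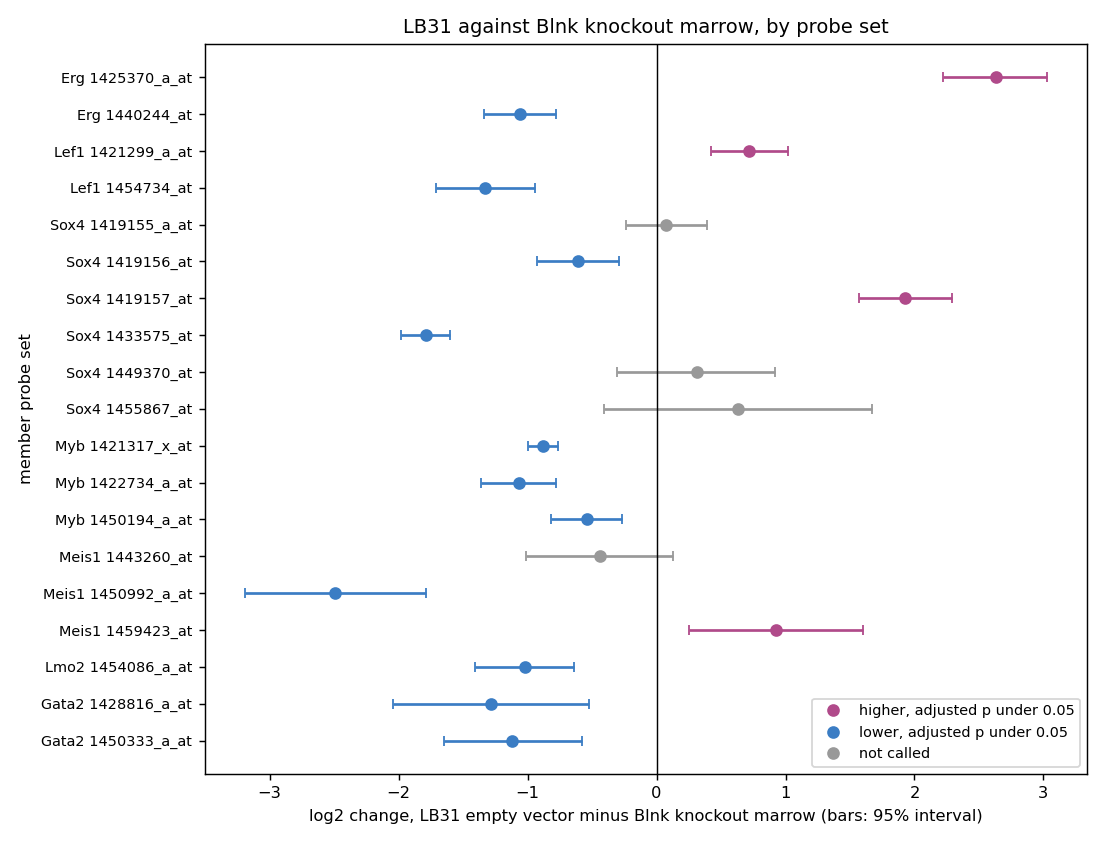
Log2 change of the 19 tested member probe sets between LB31 empty vector and knockout-labelled marrow (horizontal axis, LB31 minus marrow), with bars for the 95% interval of the limma fit and colour for the call; Meis1 1450992_a_at and Gata2 1428816_a_at were below the filter level on all LB31 arrays. Probe sets of Erg, Lef1, Sox4 and Meis1 fall on both sides of 0 (2.63 and -1.06 for Erg), while those of Myb, Lmo2 and Gata2 lie below it.

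The members were described beside 63 related genes in 6 lists (stem and progenitor factor partners, Meis partners, TCF/LEF and Wnt, Sox family, Myb family and cofactors, LMO family and partners), of which 60 had a probe set. Between knockout-labelled and wild-type marrow 54 were tested, 5 rose and 3 fell, shares near the 6.24% and 6.45% over all probe sets. Those that rose were Tcf7l2 (1.33 ± 0.23), the other TCF/LEF-type factor called, its corepressor Tle3 (1.04 ± 0.11), the cell-cycle factor Mybl2 (0.92 ± 0.16), the Tal1 relative Lyl1 (0.85 ± 0.14) and the ETS repressor Etv6 (0.79 ± 0.13). Those that fell were Lmo4 (-1.51 ± 0.13), Spi1 (-0.63 ± 0.17), which encodes PU.1, and Hhex (-0.49 ± 0.10). List medians ran from -0.19 for the Sox family to 0.29 for TCF/LEF and Wnt, and 0 of 8 Meis partners and 0 of 5 Sox family genes were called. With LAP as well, against wild-type, 10 rose and 4 fell, where 12.6% of all probe sets were called in each direction, Runx1 (0.85 ± 0.19) among those that rose.

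With the BLNK label in LB31, 4 of 50 tested related genes were higher and 8 lower against empty vector, beside 5.57% and 5.82% of all probe sets. Lyl1 (-0.44 ± 0.05), Etv6 (-0.43 ± 0.08) and Tle3 (-0.49 ± 0.07), which had risen in knockout-labelled marrow, were among those lower, with Runx1 (-0.27 ± 0.05), Kmt2a (-0.43 ± 0.08), Crebbp (-0.25 ± 0.06) and Men1 (-0.25 ± 0.07). The lowest was Mycn (-2.10 ± 0.05), but Mycn was also lower with the YF label (-1.57 ± 0.05), where Tcf3 (0.34 ± 0.06) was the only other related gene called. Mybl1 (1.16 ± 0.19), Fli1 (0.71 ± 0.17), Pknox1 (0.33 ± 0.06) and Bmi1 (0.30 ± 0.05) were higher with the BLNK label. Against YF, 1 was higher and 8 lower, beside 2.5% and 3.84%. LB31 with the empty vector against knockout-labelled marrow gave 12 higher and 22 lower of 57, beside 29.3% and 27.6%, with Mycn higher by 8.11 ± 0.30.

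Markers of B-cell stage differed between knockout-labelled and wild-type marrow, as Erg and Lef1 did. Of 8 pro-B and large pre-B markers 5 rose and 0 fell between wild-type and knockout-labelled marrow, among them Enpep (3.79 ± 0.19), Igll1 (2.32 ± 0.16) and Vpreb1 (1.66 ± 0.11), and their mean log2 signal ran from 9.87 to 10.08 and from 11.25 to 11.50 per array. All 9 immature and mature B markers fell, Cd83 (-2.59 ± 0.14) the most, from 10.96 to 11.11 to 9.24 to 9.60. The early progenitor list did not follow: 0 of 5 tested rose and 1 fell, Slamf1 (-0.84 ± 0.16). The part of the mix of B-cell stages in the Erg, Lef1 and Lmo2 differences was not tested. Neutrophil (0 of 8), megakaryocyte (0 of 7), erythroid (0 of 4) and T and NK (0 of 6) markers gave no call in this comparison, while 1 of 7 monocyte and macrophage markers rose. Of the plasmacytoid dendritic list, 2 rose and 1 fell. Stage markers and the 2 genes did not go together in every marrow comparison. Between LAP knockout-labelled and knockout-labelled marrow all 9 immature and mature B markers were lower, where 5.2% of all probe sets were called. Of the 8 pro-B and large pre-B markers 0 rose and 1 fell there. The interaction was also called lower for all 9 (background 1.18%). No Erg or Lef1 probe set was called in either.

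In LB31, 5 of 6 tested pro-B and large pre-B markers were lower with the BLNK label, Dntt (-2.72 ± 0.05) the most, and 0 higher. Whether cells of the line differed in stage was not tested. Of the immature and mature B markers Cd22 (2.44 ± 0.12) and Btla (1.41 ± 0.22) rose and 0 fell. In the early progenitor list Cd48 (-0.21 ± 0.05) fell. Flt3 was called higher, but it lay below the filter level on every empty-vector and YF-labelled array. It thus passed the filter in LB31 only through the BLNK-labelled arrays and had to differ, so no size is given.

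The genes whose signal ran most like each member over the 21 arrays, among 14648 genes, are given as a description only, since arrays of a group share their cells. They were Mlec (r = 0.972) and Tmc7 (r = 0.972) for Erg, 2900026A02Rik (r = 0.978) and 1700048O20Rik (r = 0.969) for Lef1, and Ankfy1 (r = 0.994) and the recombinase gene Rag2 (r = 0.993) for Sox4. For Myb they were Slc12a3 (r = 0.991) and Tpm4 (r = 0.99), for Lmo2 Wdr26 (r = 0.966) and Naaa (r = 0.946), for Gata2 Stab2 (r = 0.957) and F5 (r = 0.956), and for Meis1 Mcu (r = 0.857) and Rbp3 (r = 0.829). The high values for Sox4 and Myb follow the step between marrow and LB31, and these 2 members correlated with each other at r = 0.97. Probe sets of the same gene ran together for Myb (r = 0.82 and 0.76) and Gata2 (0.86), less so for Erg (0.68) and Lef1 (0.53), and in opposition for Sox4 1433575_at and 1419157_at (-0.89).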

How the data were processed

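Transcripts were measured on Affymetrix expression arrays, 1 per sample. The deposited intensity values are MAS5 signals, per the submitters' processing notes, with no version given, and no source used here says how the arrays were scaled. Array medians of the deposited values ran from 15.3 to 31.5, so the arrays were not on 1 scale. A pseudocount of 4 was added, log2 taken and all 21 arrays quantile normalized together, which removes any true difference in total message. Array data carry no read depth, and the number of arrays limits the precision. Probe sets exceeding the 40th percentile of an array on 3 or more arrays entered limma 3.58.1 (lmFit, eBayes with trend) in R 4.3.3, with p-values two-sided and adjusted by Benjamini-Hochberg over 30128 probe sets in marrow, 29478 in LB31 and 33764 over all arrays. The fit was tested on simulated data. Changes are ± SE with n = 3 per group.

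Platform annotation gave 1 symbol to 34945 probe sets, several to 932 and none to 9160; 64 controls were left out. All member probe sets are named. A related or marker gene is represented by its brightest probe set, and the 3 largest called changes per list were eligible for naming; others were named after their values were seen. The members and lists were chosen with earlier results of these data known. Promoter windows are RefSeq sequences of GRCm38.p6. Alternatives were values as deposited, median centring, normalization within the fit, pseudocounts of 1 and 16, no filter, a 60th percentile filter, 1 probe set per gene, no trend, a replicate block, the compared arrays alone, and leaving out each array.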

Additional observations from a re-analysis of the deposited data

How the results depend on the processing

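Over all member probe sets and alternatives, 3074 values kept their call or stayed uncalled, 72 lost a call, 38 gained one and 2 called values changed sign. The signs of values that stayed uncalled were not compared, and some changed. Sox4 1433575_at, at 0.14 for knockout-labelled against wild-type marrow, ran from -0.12 to 0.26. The 2 called values that changed sign were Myb 1450194_a_at under median centring, at 0.01 (adjusted p = 0.954) for LB31 against knockout-labelled and 0.15 (adjusted p = 0.44) against LAP knockout-labelled marrow. The cause was not tested for any change below, except that 1 probe set per gene leaves fewer to call. With 1 probe set per gene the member calls were 3 for knockout-labelled against wild-type, 3 for LAP knockout-labelled against LAP transgenic marrow, 3 for BLNK against empty vector, 2 for BLNK against YF, and 7 for LB31 against each marrow group. With values as deposited they were 10 for LAP knockout-labelled against wild-type and 3 for BLNK against empty vector. With median centring they were 1 for LAP knockout-labelled against knockout-labelled, 5 for BLNK and 2 for YF against empty vector, and with no trend 5 for BLNK against empty vector.

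Leaving out 1 array gave 4 to 8 member calls for knockout-labelled and 4 to 6 for LAP knockout-labelled against wild-type, 0 to 1 for LAP knockout-labelled against knockout-labelled, 5 to 8 against LAP transgenic, 7 to 9 for BLNK and 0 to 3 for YF against empty vector, 14 to 16 and 12 to 13 for LB31 against knockout-labelled and LAP knockout-labelled marrow, and 6 for BLNK against YF each time. It gave 0 for LAP transgenic against wild-type and for the interaction. The 3 for YF came without empty vector replicate 1.

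Same-numbered arrays did not deviate together, at correlations of -0.09 to 0.26 in marrow (1 of 18 pairs over 0.1) and -0.03 to 0.02 in LB31 (0 of 9). A replicate block changed the count for LAP knockout-labelled against knockout-labelled marrow to 1 (Erg 1440244_at, 0.55, adjusted p = 0.0433), and no other count of member calls moved by over 1.5 times.

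Over all probe sets the calls ran from 2284 to 6910 for knockout-labelled against wild-type (3825 as reported), 245 to 936 for LAP transgenic (782), 4162 to 10243 for LAP knockout-labelled (7593), 810 to 2181 against knockout-labelled (1567), 3601 to 11804 against LAP transgenic (6389), 203 to 578 for the interaction (355), 736 to 4958 for BLNK (3360) and 1 to 2069 for YF (67) against empty vector, 8695 to 19473 (19213) and 8614 to 19128 (18847) for LB31 against the marrow groups, and 783 to 2143 for BLNK against YF (1869). As deposited, the median of all probe sets shifted by 0.31 for knockout-labelled and 0.33 for LAP knockout-labelled against wild-type, 0.40 against LAP transgenic, -0.42 and -0.44 for LB31 against marrow, -0.19 when BLNK was set against YF, and 0.31 when YF was set against empty vector. Dim probe sets near the filter level, among them those of Meis1, limit what can be seen of those genes.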
